A study of Mus musculus with 4 samples.

Results

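The proteasome genes of mouse 4T1 cells are described here in 4 libraries of immunoprecipitated RNA. All gene symbols that start with Psma, Psmb, Psmc, Psmd, Psme, Psmf or Psmg and a number were taken, except the interferon-inducible subunits Psmb8, Psmb9 and Psmb10, and transcript entries of a symbol were summed. The rule goes by symbol alone, but it was chosen with earlier results of these data known. It gave 46 of the 12967 symbols in the files. It caught 44 genes of the proteasome itself, its activators, its inhibitor and its assembly factors. It also caught Psmc3ip and Psme3ip1, which are only named after a proteasome gene. Psmc3ip encodes a cofactor of meiotic recombinases, and Psme3ip1 encodes a protein that binds the activator Psme3. The testis subunit Psma8 and the thymus subunit Psmb11 had no entry in the files.

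The proteasome is the protease that degrades ubiquitin-tagged proteins in the cytosol and nucleus. Its barrel-shaped 20S core is built from outer rings of alpha subunits, which gate the entry, and inner rings of beta subunits, some of which cut peptide bonds. The 19S particle caps the core: the ATPases of its base unfold substrates, and its lid removes ubiquitin chains before a substrate enters. When proteasome activity falls short, the transcription factor NRF1, encoded by Nfe2l1, induces the subunit genes together.

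4T1 is a cell line of a mouse mammary carcinoma, and Caprin-1 is a cytosolic RNA-binding protein found in stress granules. RNA was precipitated with an antibody to Caprin-1 or with control IgG from 4T1 cells that stably carry a scrambled control shRNA, written shSCR, and from 4T1 cells that stably carry an shRNA against the ceramide synthase CerS4, written shCerS4. Both lines grew with puromycin, and sequencing was of polyadenylated RNA. Each of the 4 groups has 1 library, so no difference below could be tested against a spread between replicates. Whether a line is 1 clone or a pool was not given in the sources used here. The shRNA target Cers4 had no entry in the files, so these libraries give no check of the knockdown. The study's own question was how RNA bound to Caprin-1 differs between the knockdown and the control line. Where 4 values of a gene follow each other below, the first pair is IgG and then Caprin-1 of the shSCR line, and the other pair the same of the shCerS4 line.

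Levels are in CPM, a gene's reads scaled to a fixed total of reads per library. The estimated depths were 19.8, 27.0, 19.7 and 24.7 M reads. Of all genes, 10283 had a mean of at least 5 CPM and were compared, and all 46 genes taken were among them. None of the 46 rested on fewer than 152 reads in any library, the lowest being Psmc3ip in shCerS4 IgG. Ratios are log2 values with 0.5 reads added, and the 95% interval in brackets covers counting error only. A gene is said to be past 1.3-fold or 2-fold when its ratio is at least that large and its interval excludes 0. The files give no transcript lengths, so levels of different genes are not compared. The epithelial markers Epcam, Krt8, Krt18, Krt7, Cdh1 and Cldn7 were each above 5 CPM in every library, and they summed to 5674, 9695, 4006 and 5963 CPM. Of the leukocyte and endothelial markers looked for, only Csf1r and Kdr had an entry, neither above 0.811 CPM, while Ptprc, Cd3e, Itgam, Adgre1, Pecam1 and Cdh5 had none. Of 4 fibroblast markers Dcn had no entry, and the other 3 summed to 61.5, 23.7, 39.4 and 19.9 CPM, nearly all of it Pdgfra. The epithelial sum, mostly of the keratins, was thus higher and the fibroblast sum lower in the Caprin-1 library of each line, while Cdh1 went the other way at 220.3, 152, 356 and 317 CPM, and their part in the results below was not tested.

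Binding of NRF1 or NRF2 to a promoter was not measured in these libraries. Both bind the antioxidant response element, whose core is written here as TGACNNNGC. That motif was searched on both strands in the 250 bases before the start of each gene in the RefSeq promoter table (GRCm38.p6), which held 39 of the 46 genes. It was found in 5 of them, Psmb5, Psmb6, Psmc6, Psmd9 and Psmd12, or 12.8%, against 14.2% of the 8292 compared genes with a promoter and 11.5% of all 27025. The motif CCAAT was found in 14 of the 39, or 35.9%, against 41.1% and 37.5%. Neither share was above that of the compared genes, and a match is a description of letters only. The matching stretches are shown for a catalytic subunit, an assembly chaperone and a lid subunit, with the TGACNNNGC match, on either strand, in capitals. That of Psmb5 is chr14:54617996-54618245 on the minus strand, with the match starting 47 bases before the start. That of Psmd9 is chr5:123227940-123228189 on the plus strand, with the match 31 bases before the start. That of Psmd12 is chr11:107479278-107479527 on the plus strand, with the match 247 bases before the start and in reverse orientation.
Psmb5 promoter: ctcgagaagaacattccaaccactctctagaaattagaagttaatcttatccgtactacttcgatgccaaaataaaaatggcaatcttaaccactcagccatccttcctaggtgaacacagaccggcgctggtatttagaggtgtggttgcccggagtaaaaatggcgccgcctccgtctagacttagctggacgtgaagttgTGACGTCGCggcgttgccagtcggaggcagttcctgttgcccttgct
Psmd9 promoter: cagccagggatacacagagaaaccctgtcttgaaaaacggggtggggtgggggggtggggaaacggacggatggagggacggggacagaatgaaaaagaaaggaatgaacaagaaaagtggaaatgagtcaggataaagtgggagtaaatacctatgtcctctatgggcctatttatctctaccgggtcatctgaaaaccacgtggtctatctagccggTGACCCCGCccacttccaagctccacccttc
Psmd12 promoter: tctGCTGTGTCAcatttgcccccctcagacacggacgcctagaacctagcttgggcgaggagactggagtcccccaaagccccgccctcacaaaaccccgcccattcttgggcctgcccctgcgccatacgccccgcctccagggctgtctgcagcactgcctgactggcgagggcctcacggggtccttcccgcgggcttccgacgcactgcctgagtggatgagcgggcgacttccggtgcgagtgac

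The 46 genes together held 5966, 7978, 6072 and 7757 CPM, so the Caprin-1 library of each line held a larger share of proteasome mRNA than its IgG library. Within each precipitate the summed share of the 2 lines was close, at 0.972 times the shSCR value in Caprin-1 and 1.02 times in IgG for shCerS4. Among the genes, the mean over the 4 libraries ran from 15.0 CPM for Psmc3ip to 406 CPM for the base subunit Psmd2, with a median of 131 CPM against 43.4 CPM for all genes compared. In bulk precipitates such as these, fewer cells that express a gene and less RNA per cell cannot be told apart.

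**Figure D1:**
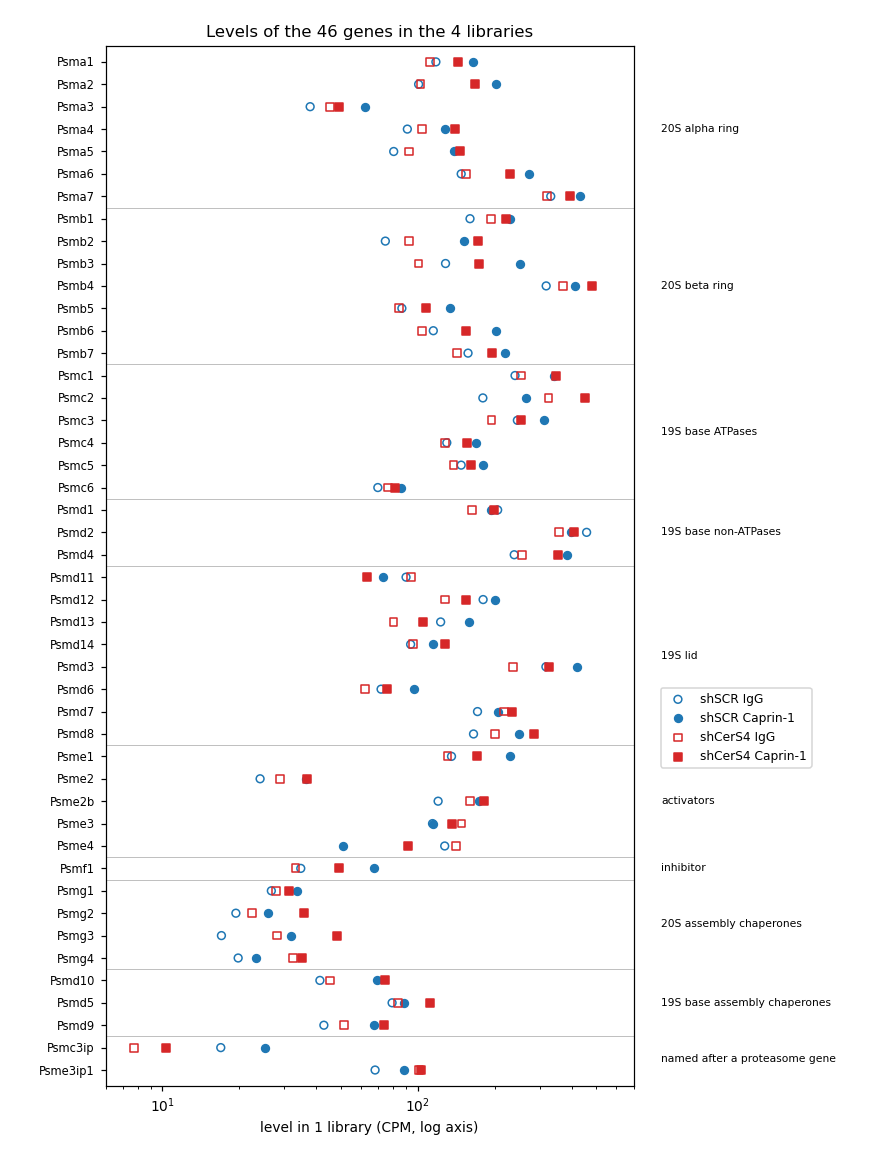
Level of each of the 46 genes (CPM, log axis) in the 4 libraries, grouped by role; open symbols are IgG and filled symbols Caprin-1 precipitates, circles shSCR and squares shCerS4. For most genes the filled symbol of each line lies to the right of its open one, while Psme4 and Psmd11 lie the other way.

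Proteasome mRNA made up a larger share of the Caprin-1 than of the IgG library in both lines. In shSCR cells the median log2 ratio of Caprin-1 over IgG was 0.48 over the 46 genes and −0.13 over all genes compared. In shCerS4 cells it was 0.38 against −0.11. In shSCR cells 29 of 46 were past 1.3-fold higher in Caprin-1, where 20.5% of all genes were, and 1 was past 1.3-fold lower, where 37.1% of all genes were. In shCerS4 cells 24 were past 1.3-fold higher, against 17.7%, and 2 past 1.3-fold lower, against 33.2%. The same 20 genes were past 1.3-fold higher in both lines, against 13.5% of all genes. A ratio above 0 was found for 42 of 46 in shSCR and 43 of 46 in shCerS4 cells, where 42.6% and 42.8% of all genes had one. The ratios were modest in size: past 2-fold were only Psmb2, higher, and Psme4, lower, in shSCR cells, where 1.7% and 13% of all genes were, and none in shCerS4 cells, where 0.934% and 8.02% were.

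**Figure D2:**
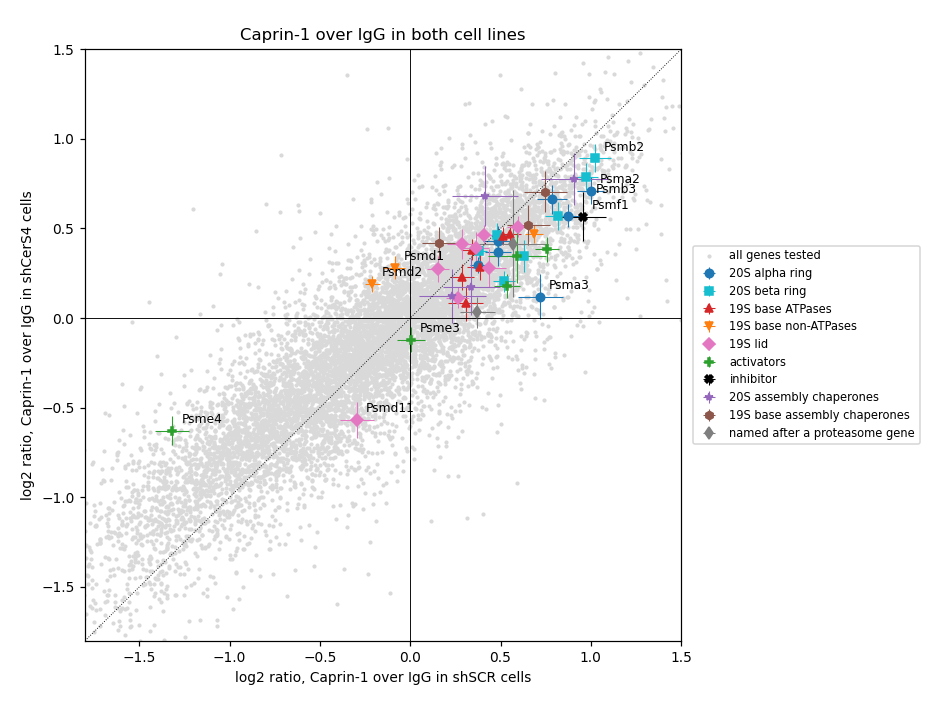
Log2 Caprin-1 over IgG ratio in shSCR cells (x axis) and shCerS4 cells (y axis) for all genes compared (grey) and the 46 genes by role, with 95% counting intervals as bars and the line of equal ratios dotted. Most of the 46 lie in the upper right; Psme4 and Psmd11 lie in the lower left.

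All 14 alpha and beta subunits of the 20S core had a ratio above 0 in each line, where 42.6% and 42.8% of all genes did. In shCerS4 cells the interval of Psma3 held 0. Past 1.3-fold higher in Caprin-1 were 13 of 14 in shSCR cells, where 20.5% of all genes were. In shCerS4 cells 8 of 14 were, against 17.7% of all genes. The median ratio of the core was 0.67 in the shSCR line and 0.45 in the shCerS4 line. The beta-ring subunit Psmb2, which has no catalytic site, was at 74.7, 152, 92.8 and 172 CPM. Both Caprin-1 values lay well above both IgG values, and the ratios were 1.02 [0.94, 1.11] in shSCR and 0.89 [0.81, 0.97] in shCerS4 cells. Psmb3, another structural beta subunit, was at 128, 252, 101 and 174 CPM, with ratios of 0.97 and 0.79. Its Caprin-1 values were again the highest in each line, but both shCerS4 values were below the matching shSCR ones. Psmb4, the last subunit to join the beta ring, was at 318, 414, 371 and 481 CPM. Its ratio of 0.38 in shSCR cells was the lowest of the beta ring and lay just past the 1.3-fold threshold, and in shCerS4 cells it was 0.37. Psmb1, also structural, was at 160, 229, 193 and 222 CPM, and at 0.20 it had the lowest ratio of the beta ring in shCerS4 cells. The 3 catalytic subunits followed the same pattern. The chymotrypsin-like Psmb5 had ratios of 0.63 and 0.35, the caspase-like Psmb6 0.82 and 0.57, and the trypsin-like Psmb7 0.48 and 0.46.

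In the alpha ring, which gates the barrel, Psma2 had the highest ratios. It was at 101, 202, 103 and 168 CPM, so that the IgG values of the 2 lines were nearly equal and the Caprin-1 values lay above both. Its ratios were 1.00 [0.93, 1.07] and 0.71 [0.63, 0.79]. Psma7 was at 332, 430, 322 and 395 CPM, and its ratio of 0.37 in shSCR cells was the lowest of the alpha ring and the only one of the core short of 1.3-fold there, by little. Psma1 was at 118, 165, 111 and 144 CPM and Psma4 at 91.1, 128, 104 and 140 CPM, each with both Caprin-1 values above both IgG values. Psma3 differed between the lines. It was at 37.9, 62.4, 45.4 and 49.3 CPM, high only in the shSCR Caprin-1 library, with ratios of 0.72 [0.59, 0.84] in shSCR and 0.12 [−0.01, 0.25] in shCerS4 cells. Psma5 and Psma6 had ratios of 0.79 and 0.88 in shSCR cells and 0.66 and 0.57 in shCerS4 cells.

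The 17 genes of the 19S particle had a lower median ratio than the core, 0.34 in shSCR and 0.29 in shCerS4 cells, with ranges that overlapped those of the core. Past 1.3-fold higher were 7 of 17 in shSCR and 8 of 17 in shCerS4 cells, where 20.5% and 17.7% of all genes were. Psmd11 was past 1.3-fold lower in shCerS4 cells, where 33.2% of all genes were. All 6 ATPases of the base, which unfold substrates, had ratios above 0 in each line, where 42.6% and 42.8% of all genes did. Among them Psmc2 had the highest ratios, 0.55 and 0.47, at 180, 264, 325 and 451 CPM. Psmc5, with the lowest ratio of the ATPases in shSCR cells (0.29), was at 148, 180.5, 138 and 162 CPM. Psmc6, with the lowest in shCerS4 cells (0.08 [−0.01, 0.18]), was at 69.8, 86.3, 76.7 and 81.2 CPM. Psmc3 was at 246, 311, 194 and 253 CPM, with both shCerS4 values below the matching shSCR values, and had ratios of 0.34 and 0.38.

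The 3 non-ATPase subunits of the base did not share a direction. Psmd4, a ubiquitin receptor, was at 239, 384, 256 and 354 CPM, with Caprin-1 above IgG in both lines and ratios of 0.69 and 0.47. Psmd1 and Psmd2, the large scaffold subunits, behaved otherwise. Psmd1 was at 206, 194, 163 and 198 CPM and Psmd2 at 458, 396, 358 and 409 CPM, so that the shCerS4 IgG library was the lowest for both genes. The Psmd1 ratio was −0.09 [−0.15, −0.03] in shSCR and 0.28 [0.22, 0.35] in shCerS4 cells. The Psmd2 ratio was −0.21 [−0.25, −0.17] in shSCR and 0.19 [0.15, 0.24] in shCerS4 cells. The negative Psmd1 ratio depends on the scaling of the libraries: it was 0.08 with trimmed-mean scaling, while that of Psmd2 was −0.04.

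Of the 8 lid subunits, 7 had ratios above 0 in each line, where 42.6% and 42.8% of all genes did. Psmd11, a lid scaffold subunit, was the exception at 90.0, 73.3, 94.3 and 63.6 CPM, with both Caprin-1 values below both IgG values. Its ratios were −0.30 [−0.39, −0.20] in shSCR and −0.57 [−0.67, −0.47] in shCerS4 cells. Psmd8 had the highest ratios of the lid, 0.60 and 0.51, at 165, 250.2, 200.4 and 285 CPM. Psmd14, the deubiquitinase of the lid, was at 93.8, 114, 96.0 and 128 CPM, with ratios of 0.29 and 0.41. Psmd7, its partner in the lid, was at 171, 206, 217 and 235 CPM, and Psmd13 at 123, 158, 80.4 and 105 CPM.

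The activators differed widely among themselves. Psme4, which encodes the large nuclear activator PA200, was the only gene of the 46 past 1.3-fold lower in Caprin-1 in both lines, where 28.9% of all genes were. It was at 128, 51.1, 141 and 91.2 CPM, lowest in the shSCR Caprin-1 library. Its ratio was −1.32 [−1.41, −1.22] in shSCR and −0.63 [−0.71, −0.55] in shCerS4 cells. The PA28 subunit Psme1 was at 136, 229, 131 and 171 CPM, with ratios of 0.76 and 0.38. Psme3, the nuclear PA28 protein, had ratios of 0.00 [−0.08, 0.08] and −0.12 [−0.19, −0.05]. Psmf1, which encodes an inhibitor of the core, was at 34.8, 67.7, 33.2 and 49.2 CPM. Both Caprin-1 values exceeded both IgG values, and the ratios were 0.96 [0.83, 1.09] and 0.57 [0.43, 0.71].

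Among the assembly factors, those of the 20S core, the Psmg genes, are low in reads and their intervals are wide. Chaperones of the 20S core had a median ratio of 0.38 in shSCR and 0.43 in shCerS4 cells. Psmg3 was at 17.0, 32.0, 28.2 and 48.2 CPM and had ratios of 0.91 [0.73, 1.09] and 0.78 [0.63, 0.92]. Psmg4 was at 19.8, 23.3, 32.4 and 35.3 CPM, with both shCerS4 values above both shSCR values and ratios of only 0.23 and 0.12. Psmg1 was at 26.7, 33.8, 27.8 and 31.4 CPM and Psmg2 at 19.4, 25.9, 22.4 and 35.9 CPM, the latter highest in the shCerS4 Caprin-1 library. Chaperones of the 19S base had medians of 0.65 and 0.52. Psmd10 was at 41.4, 69.5, 45.4 and 74.2 CPM, Psmd9 at 42.9, 67.5, 51.5 and 73.7 CPM, and Psmd5 at 79.4, 88.7, 83.8 and 112 CPM. Caprin-1 was above IgG in both lines for each of the 3, and the Psmd5 ratio was 0.16 in shSCR and 0.42 in shCerS4 cells.

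Across all 10277 compared genes with a genomic span, long genes had low Caprin-1 over IgG ratios, and the proteasome genes are short. Spearman's rho between span and ratio across genes, which share their libraries, was −0.54 in shSCR and −0.48 in shCerS4 cells. Across the 46 genes it was −0.20 and −0.06. The median span was 12.4 kb for the 46 and 23.5 kb for all. Set against the median of all genes in the same span decile, 41 of 46 lay above it in each line, and the median distance was 0.35 in shSCR and 0.27 in shCerS4 cells, smaller than the 0.61 and 0.49 found against the median of all genes. Psme4, at 109 kb the longest of the 46, lay below that median in both lines, at −0.61 from it in shSCR and −0.08 in shCerS4 cells. The nuclear activator Psme3 and the lid subunit Psmd7 also lay below it in both. Psmd2 and Psmb4 lay below it in shSCR cells only, and Psmd11 and Psme2b in shCerS4 cells only. Psmd14 at 88.7 kb and Psmb7 at 55.9 kb were long genes with ratios above 0 in both lines.

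**Figure D3:**
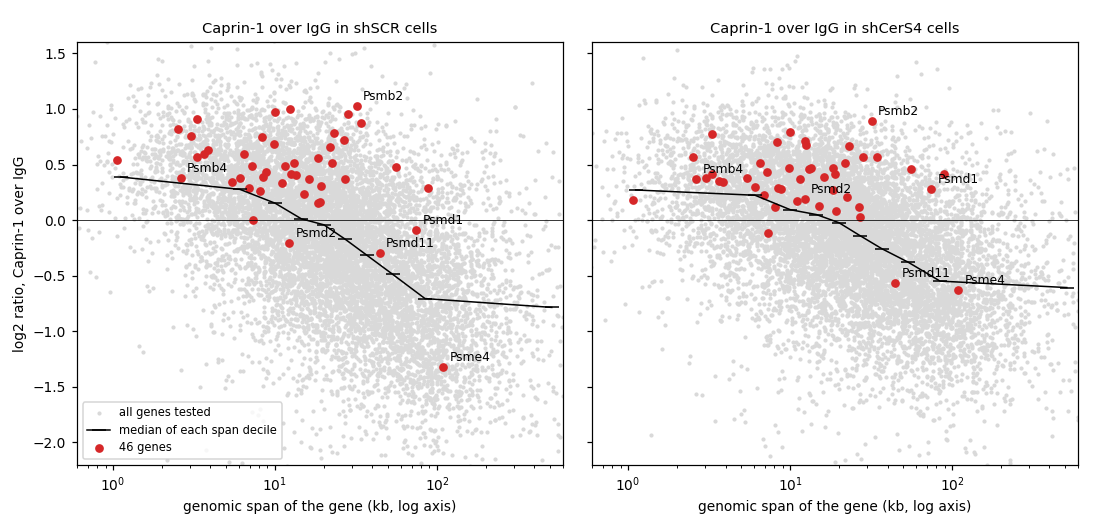
Log2 Caprin-1 over IgG ratio against genomic span (kb, log axis) in shSCR cells (left) and shCerS4 cells (right), for all genes compared (grey) and the 46 genes (red); the black line joins the medians of the span deciles. In each panel 41 of the 46 genes lie above the median of their decile.

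The Caprin-1 over IgG ratio of most proteasome genes was smaller in shCerS4 than in shSCR cells, by little. The difference of the 2 log2 ratios, shCerS4 minus shSCR, had a median of −0.12 over the 46 genes and 0.04 over all genes. Below 0 with an interval excluding 0 were 24 of 46, where 20.9% of all genes were, and above 0 were 7, where 29.4% of all genes were. In the 20S core all 14 differences were below 0, where 44% of all genes were, from −0.60 to −0.01, and 11 had an interval that excluded 0. The 19S particle was mixed, with 7 below 0 and 4 above 0 among intervals that excluded 0. Past 1.3-fold were 2 genes in each direction, where 7.04% of all genes were past it lower and 11.8% higher. These counts became 1 higher and 4 lower with median-of-ratios or upper-quartile scaling or the most abundant transcript alone, and 2 higher and 5 lower with the span correction. For these alternatives the shares of all genes were not computed. Lower were Psma3 at −0.60 [−0.78, −0.42] and Psmf1 at −0.39 [−0.58, −0.20]. With its most abundant transcript alone Psma3 was at −0.49 [−0.67, −0.30]. Higher were Psme4 at 0.69 [0.56, 0.81] and Psmd2 at 0.40 [0.34, 0.46], though Psmd2 fell short with median-of-ratios scaling (0.37) and with its most abundant transcript alone (0.34). Psmd1, the partner of Psmd2 in the base, stood just short at 0.37 [0.28, 0.45]. No gene was past 2-fold, where 0.35% of all genes were past it lower and 0.632% higher. These differences use all 4 libraries, each also part of the ratios above, so they add no separate measurement.

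**Figure D4:**
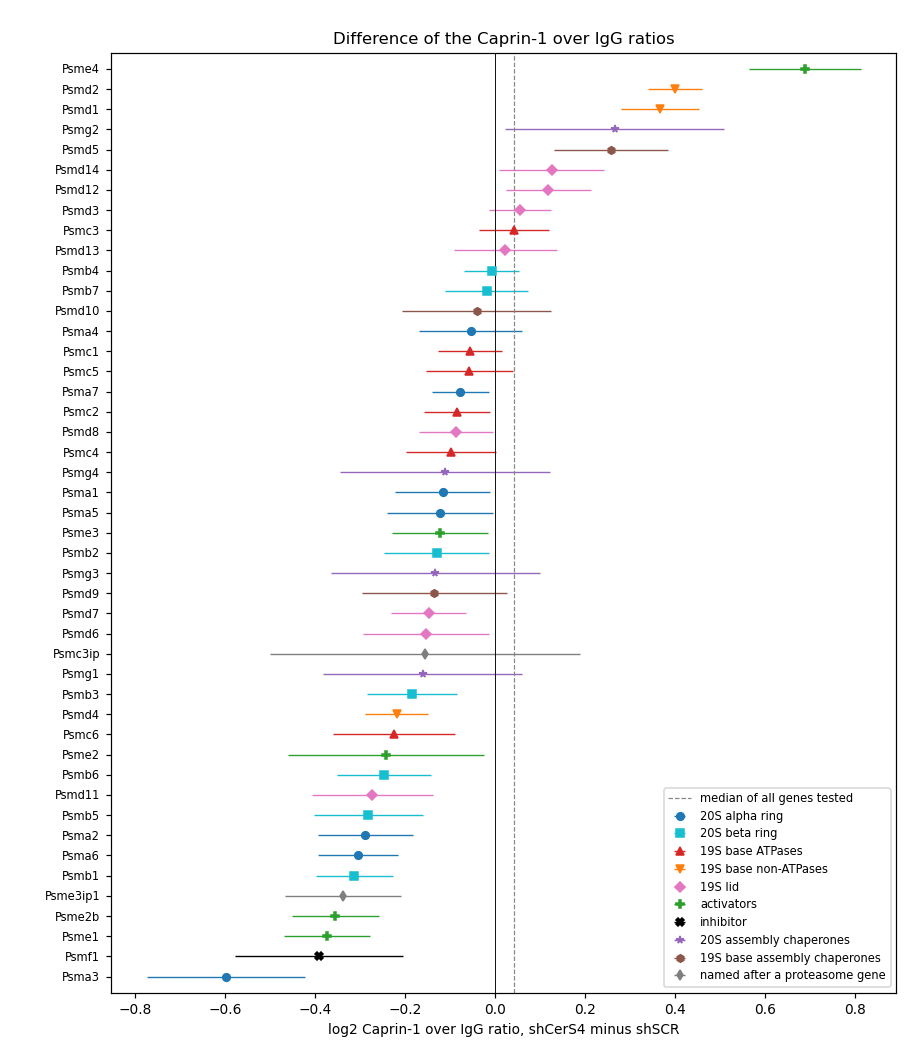
Difference of the log2 Caprin-1 over IgG ratios, shCerS4 minus shSCR, for each of the 46 genes in order of size, coloured by role, with 95% counting intervals. The 14 subunits of the 20S core all lie left of 0; Psme4, Psmd2 and Psmd1 lie farthest to the right.

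Between the lines, proteasome mRNA as a group differed little. In the Caprin-1 precipitates, the study's main comparison, the median log2 ratio of shCerS4 over shSCR was −0.07 over the 46 genes and 0.15 over all genes, and 13 of 46 stood above the latter. Past 1.3-fold higher were 5, where 32.3% of all genes were, and past 1.3-fold lower were 6, where 17.3% were. In the IgG precipitates the median was 0.07 against 0.10 over all genes, a sign that turned with the scaling of the libraries (−0.024 with trimmed-mean scaling). Past 1.3-fold higher were 5, where 29.1% of all genes were, and lower were 4, where 19% were. Only Psmc3ip was past 2-fold, lower in both, where 4.95% of all genes were in Caprin-1 and 5.34% in IgG. None was past 2-fold higher, where 6.24% and 5.69% of all genes were. Under the 3 other scalings and the span correction, 12 or 13 of the 46 were past 1.3-fold lower in Caprin-1 and 8 in IgG. The shares of all genes under these settings were not computed, so those above do not apply to these counts.

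By role, the median in the Caprin-1 precipitates was −0.18 for the 20S core, −0.10 for the base ATPases, −0.28 for the lid, 0.13 for the chaperones of the 19S base and 0.53 for those of the 20S core. In the IgG precipitates these medians were 0.04, 0.03, −0.09, 0.13 and 0.46. Past 1.3-fold lower in Caprin-1 were Psmb3 (−0.54), Psmb6 (−0.40), the lid subunit Psmd13 (−0.59), the activator Psme1 (−0.43), the inhibitor Psmf1 (−0.46) and Psmc3ip (−1.29). Past 1.3-fold higher were Psme4 (0.83), Psmc2 (0.77), Psmg4 (0.60), Psmg3 (0.59) and Psmg2 (0.47). In IgG the intervals of Psme1 and Psmf1 held 0, and the Psme4 ratio was 0.15. In IgG the lid subunits Psmd12 and Psmd3 were also past 1.3-fold lower, at −0.49 and −0.42, and in Caprin-1 they were just short of it, at −0.38 and −0.37. Psme2b and Psme3ip1 were past 1.3-fold higher in IgG, at 0.42 and 0.57, and had ratios of 0.06 and 0.23 in Caprin-1. Psme3ip1 was at 68.1, 88.0, 101 and 103 CPM.

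**Figure D5:**
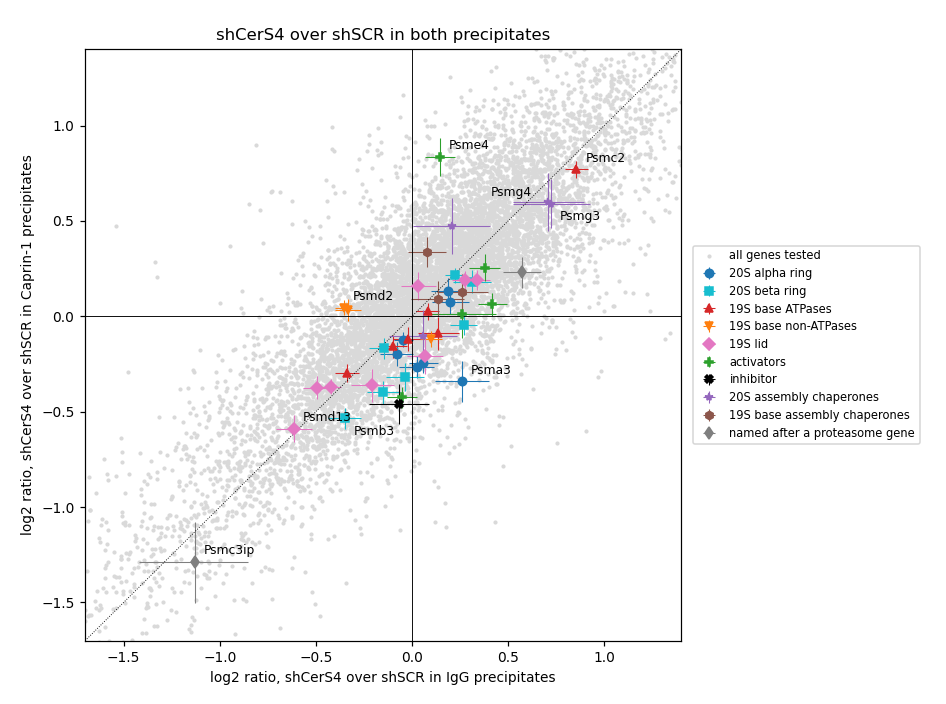
Log2 ratio of shCerS4 over shSCR in IgG (x axis) and Caprin-1 precipitates (y axis) for all genes compared (grey) and the 46 genes by role, with 95% counting intervals as bars and the line of equal ratios dotted. Psmc2, Psmg3 and Psmg4 lie high and Psmd13 and Psmc3ip low on both axes.

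Past 1.3-fold in the same direction in both precipitates were 5 genes. Past 1.3-fold higher in both were Psmc2, Psmg3 and Psmg4, where 22.3% of all genes were, and lower in both were Psmd13 and Psmc3ip, where 13.4% were. Other genes, Psmb3, Psmc3, Psmd3 and Psmd12 among them, were also lower in both with intervals that excluded 0, but short of 1.3-fold in either or both. Psmc2, a base ATPase at chr5:21785275-21803787 (GRCm38), had ratios of 0.77 [0.73, 0.81] in Caprin-1 and 0.85 [0.80, 0.91] in IgG, and its lowest shCerS4 value exceeded its highest shSCR value. Psmd13 had ratios of −0.59 [−0.66, −0.52] and −0.61 [−0.71, −0.52]. Psmc3ip was at 16.9, 25.2, 7.7 and 10.3 CPM, both shCerS4 values below both shSCR values, with ratios of −1.29 [−1.50, −1.08] and −1.13 [−1.42, −0.85]. Psmg3 had ratios of 0.59 and 0.72, and Psmg4 of 0.60 and 0.71. The nearest 5 compared genes on each side of these 5 genes were looked at after their values were seen. Around Psmc2, 9 of 10 neighbours were above 0 in each precipitate, with medians of 0.48 and 0.52, where 61.3% of all genes were above 0 in Caprin-1 and 57.8% in IgG. Around Psmc3ip 1 of 10 was above 0 in each, with medians of −0.50 and −0.52. Neighbours of Psmd13 had medians of 0.20 and 0.24, opposite in sign to Psmd13 itself. Those of Psmg3 had medians of 0.14 and 0.38, and those of Psmg4 −0.09 and −0.06. The part of a gene's chromosomal place in these ratios was not tested.

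Summing the transcript entries hid some differences. Of the 46 genes 14 had several entries, but a second one with a mean of at least 5 CPM was present in only 4, Psma7, Psmd10, Psmd2 and Psmd4. Psmd4 was the one with 2 sizeable entries. The first was at 134, 233, 173 and 234 CPM and the other at 104, 151, 82.0 and 119 CPM. In IgG their shCerS4 over shSCR ratios were opposite, 0.37 [0.30, 0.44] and −0.35 [−0.44, −0.25], so the summed Psmd4 ratio of 0.10 is the balance of both entries. In Caprin-1 the first was level at 0.01 and the other lower at −0.34. Psme2 and its near-identical copy Psme2b, PA28 subunits that can share reads, are uncertain one by one. Psme2 was at 24.2, 36.4, 28.9 and 36.8 CPM and Psme2b at 120, 174, 161 and 182 CPM. Summed, they were at 144, 211, 190 and 219 CPM, with Caprin-1 over IgG ratios of 0.55 in the shSCR and 0.21 in the shCerS4 line. The gene table also names 6 pseudogenes after 4 of the 46 genes, Psma5, Psmb5, Psmb6 and Psmb7, and reads that match both could have been counted in these genes.

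The related lists were taken from the same files. The immunoproteasome subunits, which replace the catalytic beta subunits under interferon, were all above 0 in Caprin-1 over IgG. Psmb8 was at 157, 298, 153 and 277 CPM, with Caprin-1 over IgG ratios of 0.93 and 0.85. Psmb10 was at 64.2, 127, 81.5 and 130 CPM, with ratios of 0.99 and 0.68. Psmb9 was at 14.7, 22.2, 13.2 and 20.8 CPM, with ratios of 0.59 and 0.66. All 3 were past 1.3-fold higher in Caprin-1 in both lines, where 13.5% of all genes were, and none was past 1.3-fold between the lines. Of all genes, 32.3% were past it higher and 17.3% lower between the lines in Caprin-1, and 29.1% and 19% in IgG. Of 9 proteasome-associated genes outside the symbol pattern 8 had an entry, and 5 were past 1.3-fold higher and 2 lower in Caprin-1 in shSCR cells, where 20.5% and 37.1% of all genes were. Lower were Ecpas, a proteasome scaffold, at 124, 64.5, 165 and 123 CPM, and Ube3c, a ubiquitin ligase of the proteasome, at 104, 53.0, 142 and 91.5 CPM. Uchl5, a deubiquitinase of the 19S particle, was at 26.2, 44.8, 26.2 and 29.9 CPM, high only in the shSCR Caprin-1 library as Psma3 was. Akirin2, which guides proteasomes into the nucleus, was at 94.5, 157, 127 and 201 CPM.

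The genes of the NRF1 pathway did not all share a direction between the lines. Above 0 in shCerS4 over shSCR were 8 of 10 in Caprin-1, where 61.3% of all genes were. In IgG 7 of 10 were, where 57.8% of all genes were. Nfe2l1, which encodes NRF1, was at 630, 438, 1314 and 924 CPM, with both shCerS4 values above both shSCR values and shCerS4 over shSCR ratios of 1.08 in Caprin-1 and 1.06 in IgG. Mafk, which encodes a dimer partner of NRF1, was at 32.3, 27.9, 66.4 and 63.9 CPM, with ratios of 1.20 and 1.04. Of the 10 genes of this list, 5 were past 1.3-fold higher in shCerS4 in Caprin-1, where 32.3% of all genes were, and 4 in IgG, where 29.1% were. None was past it lower, where 17.3% of all genes were in Caprin-1 and 19% in IgG. Ddi2, the protease that cleaves NRF1, had ratios of −0.29 and −0.12, and Nfe2l2, which encodes NRF2, −0.19 and −0.22. Ngly1, the glycanase that processes NRF1, was at 10.8, 7.8, 15.9 and 13.6 CPM. Sel1l, of the endoplasmic reticulum degradation complex, was at 91.3, 54.0, 110 and 78.7 CPM. The 5 proteasome genes with the antioxidant response motif had a median shCerS4 over shSCR ratio of −0.32 in Caprin-1 and −0.04 in IgG. These 5 ran from −0.40 to 0.13 in Caprin-1 and from −0.49 to 0.26 in IgG. The other 34 with a promoter had medians of 0.02 and 0.07. They ran from −1.29 to 0.83 and from −1.13 to 0.85, so the ranges overlapped. The part of the motif in these ratios was not tested. Of 14 ubiquitin genes and shuttle factors 13 had an entry, and 5 were past 1.3-fold higher in shCerS4 in Caprin-1 and 2 lower, shares near the 32.3% and 17.3% of all genes. In IgG 6 of the 13 were past 1.3-fold higher, where 29.1% of all genes were, and 0 lower, where 19% were. Zfand2a, which encodes a stress-induced proteasome-associated protein, was at 214, 135, 325 and 224 CPM, with each shCerS4 value above its matching shSCR value.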

How the data were processed

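The libraries were built from polyadenylated RNA harvested with Qiazol, using a SMARTER kit, per the labels' protocols. Partek and STAR are named with the mm10 build, without versions, per the submitters' processing notes. No source used here states the strandedness. The deposited table, by its name raw counts, holds CPM per transcript, with 0.0001 CPM added by the authors to each value as read from the values; this was subtracted, and the 24393 transcript entries were summed per symbol. Depth was estimated from the spacing of the CPM values: among the 7415 symbols with 1 transcript, 80.1% to 81.8% of values came out whole to within 0.05 reads, so read numbers are estimates, and 3 reads correspond to 0.111 to 0.152 CPM. Exact (Clopper-Pearson) 95% counting intervals rest on those reads, without molecular barcodes, and cover neither amplification nor variation between cultures. The difference of ratios has a normal interval. Libraries were scaled to their totals, and 9 alternatives were computed, as described in the closing section. With 1 library per group no p-value was computed. The 46 genes, the role groups, the related lists and the rule for genes whose values are given in every library (extremes of each role group, genes past 2-fold, genes with opposite signs, up to 4 genes per related list) were chosen with earlier results of these data known. Some genes that this rule names are not reported here. Positions are from the RefSeq gene table (GRCm38), which matched all 46. Scripts ran in Python 3.11.15 with pandas 2.3.3, numpy 2.4.6 and scipy 1.17.1, and were tested on simulated data.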

Additional observations from a re-analysis of the deposited data

Results flagged for a closer look

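A ratio had opposite signs in the groups compared, with both counting intervals excluding 0, for 5 of the 46 genes. The share of all genes with such opposite signs was not computed, so this count is a description of single genes only. With 1 library per group none of these differences was tested against replicates. Between the cell lines, Caprin-1 over IgG was below 0 in shSCR and above 0 in shCerS4 cells for Psmd1, a difference of 0.37, and for Psmd2, a difference of 0.40. The negative Psmd1 value turned positive under each of the 3 other scalings of the libraries. The positive shCerS4 over shSCR value of Psmd2 in Caprin-1 turned negative. The negative Caprin-1 over IgG value of Psmd2 in shSCR cells stayed below 0. Under median-of-ratios and upper-quartile scaling its counting interval, as wide as before, would hold 0. The 2 differences moved little, to 0.33 and 0.37 at the lowest. Between the precipitates, shCerS4 over shSCR was above 0 in IgG and below 0 in Caprin-1 for Psma3, a difference of −0.60, for Psmc6, a difference of −0.22, and for Psmd4, a difference of −0.22. Under the other scalings the IgG ratio of Psmc6 was 0.040 to 0.062 and that of Psmd4 0.0021 to 0.025, where the counting intervals, as wide as before, would hold 0. For Psmd2 it was below 0 in IgG and above 0 in Caprin-1, again a difference of 0.40, which is the same contrast of the 4 libraries.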

How the results depend on the processing

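No paired analysis was possible because each group has 1 library. The alternatives were 3 other scalings (trimmed mean, median of ratios, upper quartile), filters of 1 and 20 CPM, 5 reads added, the most abundant transcript alone, each ratio minus the median of its decile of genomic span, and the 44 genes without Psmc3ip and Psme3ip1. Correction by transcript length was not run, since the files give no transcript identifiers or lengths. Values below follow the order trimmed mean, median of ratios, upper quartile and span. The shares of all genes past 1.3-fold were not computed under the alternatives. Scaling moved every ratio of a comparison alike: the median of all genes for Caprin-1 over IgG in shSCR cells went from −0.13 to 0.03 with the trimmed mean, and the distance of the 46 genes from it stayed at 0.61. The median shCerS4 over shSCR ratio in Caprin-1 became −0.17, −0.19, −0.17 and −0.16, with 12, 13, 12 and 13 genes past 1.3-fold lower. In IgG it turned negative, −0.024, −0.023, −0.0014 and −0.0014, with 8 genes past 1.3-fold lower under each. The median Caprin-1 over IgG ratio became 0.65, 0.66, 0.66 and 0.35 in shSCR and 0.54, 0.52, 0.53 and 0.27 in shCerS4 cells, where 0 genes stayed past 1.3-fold lower after the span correction. For the difference of the ratios, genes past 1.3-fold higher fell to 1 with median-of-ratios or upper-quartile scaling or the most abundant transcript, and those lower became 4 under each of these and 5 under the span correction. Among the 230 single ratios of the 46 genes, the sign turned in 16, 18, 15 and 22. Psmb4 turned from 0.38 to −0.0076 for Caprin-1 over IgG in shSCR cells under the span correction. Depth limits Psmc3ip and the Psmg genes most.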
